A study of Mus musculus with 24 samples.

Results

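Chromosome 19, the smallest mouse autosome, is described here across its 100-kb bins in libraries of the phosphorylated histone gH2AX, its parent histone H2AX and input chromatin. The members were all bins of chromosome 19 in the deposited count table except 2 pairs of neighbouring bins with variable copy number, at Ide and Kif11 and at Cyp2c29 and Cyp2c39. That left 611 of the 27268 bins of the whole table, 70 of them in the proximal part from 3 to 10 Mb and 541 elsewhere. No read was listed in any library for 31 members, of which 29 lay below 3 Mb, where the acrocentric mouse chromosomes are not assembled. The last bin below 3 Mb held 1 read in all and was not tested. A further member at 0 was chr19:6700001-6800000, and the last was the short bin that ends the chromosome. The low-count filter kept 579 members for the tests, 69 proximal and 510 in the rest.

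H2AX is a variant of histone H2A that sits in a share of nucleosomes along the genome. After a double-strand break, kinases of the ATM family phosphorylate its tail, and this form, gH2AX, spreads over chromatin domains much longer than a gene and recruits repair factors. SIRT7 is an NAD-dependent deacylase of nucleoli and chromatin that is known to act in the response to DNA breaks. Mouse chromosome 19 carries a dense block of housekeeping genes next to its centromeric end, followed by clusters of tissue-restricted genes and by long stretches with few genes.

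The cells were primary mouse embryonic fibroblasts (MEFs) of strain C57BL6, lacking SIRT7 (labelled SIRT7-KO, here KO) or wild type (WT), from females and males. All of them, WT cells included, had received 5 Gy of X-rays and recovered for 30 min, so no group shows unirradiated cells. With 3 kinds of library (gH2AX, H2AX, input), 2 sexes and 2 genotypes there were 12 groups of 2 libraries each. The labels name neither the allele that removes SIRT7 nor separate cultures or animals behind the replicates, so p-values measure the spread between these libraries, and a genotype cannot be told apart from the culture that carries it. A bin many times longer than Sirt7 cannot check the deletion. The share of reads on the Y chromosome was 0.0872% to 0.0996% in groups labelled female and 1.55% to 1.6% in groups labelled male. Library totals ran from 84.5 to 212.2 M reads for gH2AX, from 66.9 to 250.2 M for H2AX and from 92.4 to 269.3 M for input. A member held a median of 3141 to 7859 reads in the gH2AX libraries, 2506 to 9156 in the H2AX libraries and 3307 to 9425 in the input libraries. At such depth counting error was small, and replicates differed by 2.55 to 3.43 times the counting variance over the members.

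To show what the 2 ends of the chromosome's gH2AX range look like as DNA, RefSeq promoters (GRCm38.p6, 250 bases before to 50 after the gene start) were read from the members highest and lowest for gH2AX over input that have a promoter in the RefSeq table. From each member the promoter nearest the middle of its bin is shown. CG dinucleotides, a motif that reads the same on both strands, are in capitals. Tmem258 (a small membrane subunit of the oligosaccharyltransferase, chr19:10205783-10206082, plus strand) and Pitpnm1 (a phosphatidylinositol transfer protein, chr19:4100372-4100671, plus strand) come from high members. Olfr1472 (chr19:13454466-13454765, minus strand) and Olfr1501 (chr19:13839122-13839421, minus strand) are odorant receptor genes of low members.
Tmem258: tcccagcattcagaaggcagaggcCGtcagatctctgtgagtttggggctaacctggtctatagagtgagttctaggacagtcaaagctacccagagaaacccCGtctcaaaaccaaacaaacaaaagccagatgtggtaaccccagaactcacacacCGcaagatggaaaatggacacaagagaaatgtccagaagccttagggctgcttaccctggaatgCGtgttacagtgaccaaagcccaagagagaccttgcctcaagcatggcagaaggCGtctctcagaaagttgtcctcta
Pitpnm1: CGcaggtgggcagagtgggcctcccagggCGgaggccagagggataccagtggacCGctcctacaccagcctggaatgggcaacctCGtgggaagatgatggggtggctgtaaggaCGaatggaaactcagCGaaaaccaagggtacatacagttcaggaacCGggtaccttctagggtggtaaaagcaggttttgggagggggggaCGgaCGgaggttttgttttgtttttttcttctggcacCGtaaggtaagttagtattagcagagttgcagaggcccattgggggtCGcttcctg
Olfr1472: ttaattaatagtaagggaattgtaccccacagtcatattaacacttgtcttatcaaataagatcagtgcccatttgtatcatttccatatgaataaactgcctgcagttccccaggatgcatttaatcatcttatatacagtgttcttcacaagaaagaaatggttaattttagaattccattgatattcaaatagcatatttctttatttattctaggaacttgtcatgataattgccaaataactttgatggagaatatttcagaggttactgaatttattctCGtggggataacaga
Olfr1501: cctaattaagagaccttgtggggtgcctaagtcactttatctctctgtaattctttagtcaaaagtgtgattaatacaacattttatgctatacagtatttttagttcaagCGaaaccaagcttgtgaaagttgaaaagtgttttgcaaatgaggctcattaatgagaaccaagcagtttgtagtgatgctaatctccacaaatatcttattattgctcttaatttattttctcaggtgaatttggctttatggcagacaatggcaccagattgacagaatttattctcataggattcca
The first pair held 5 and 11 CG dinucleotides, the second pair 1 each. Both promoters of the first pair are below the medians that follow for the proximal part and for all chromosomes. Over the RefSeq promoters placed in each part, the median was 18 CG dinucleotides in the proximal part (210 promoters) and 13 in the rest of the chromosome (519 promoters), against 13 over all chromosomes (21263 promoters). At least 10 of them were found in 76.7% of proximal promoters and 56.3% of the other chromosome 19 promoters, against 56.8% over all chromosomes. The 59 olfactory receptor promoters and the 10 Slc22a promoters of chromosome 19 had a median of 1.

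Chromosome 19 as a whole carried more gH2AX and more H2AX than its share of input. Ratios are log2 differences between library kinds after TMM scaling on the autosomes, so 0 marks the autosomal average and no absolute amount of histone is measured. Summed over the members, gH2AX over input was 0.057 ± 0.0012 (SE, 8 libraries of each kind) and H2AX over input 0.087 ± 0.0012, ranks 6 and 5 of the 19 autosomes. The gH2AX over H2AX ratio was -0.030, rank 16. The adjusted p (limma, Benjamini-Hochberg over 19 autosomes) was 2.55e-16 for gH2AX over input, 1e-18 for H2AX over input and 1.34e-12 for gH2AX over H2AX. These values also depend on the other autosomes, all 19 of which differed from 0 for both ratios to input. By bin, edgeR's quasi-likelihood test at an adjusted p under 0.05 called 499 of 579 members for gH2AX over input, 272 higher and 227 lower, against 86.6% of all bins tested (41.5% higher and 45.2% lower). It called 509 for H2AX over input, 310 higher and 199 lower, against 89.4% of bins (44.9% higher and 44.5% lower). For gH2AX over H2AX it called 395, 141 higher and 254 lower, against 75.1% of bins (38.5% higher and 36.6% lower). The shares called were thus close to those of the genome, and the description rests on where the values are high and low.

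Both marks were enriched over input in the proximal part, relative to the rest of the chromosome. The log2 ratio of reads in proximal members to reads in the remaining members ranged from -2.70 to -2.63 over the 8 gH2AX libraries (median -2.65) and from -2.63 to -2.60 over the 8 H2AX libraries (median -2.62), against -2.89 to -2.87 over the 8 input libraries (median -2.88). Every gH2AX and H2AX library lay above every input library. The excess over input was 0.22 ± 0.0038 for gH2AX (SE, adjusted p = 5.2e-19) and 0.26 ± 0.0038 for H2AX (adjusted p = 1.32e-20, limma over 19 autosomes). An exact two-sided permutation test of 8 against 8 libraries gave p = 0.000155 for each, the smallest it can give. The gH2AX excess was the highest of the same 3 to 10 Mb against rest comparison on the 19 autosomes, where the others ran from -0.21 to 0.21, and the H2AX excess ranked 3 of 19. All 19 autosomes were called, higher or lower, in this comparison for both ratios to input. For gH2AX over H2AX 17 of 19 were called, and chromosome 19 ranked 15. Relative to H2AX, the proximal part had less gH2AX (-0.040 ± 0.0038, adjusted p = 1.4e-08), although with the median of bins in place of summed reads this was -0.012 with an adjusted p of 0.0638.

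**Figure D1:**
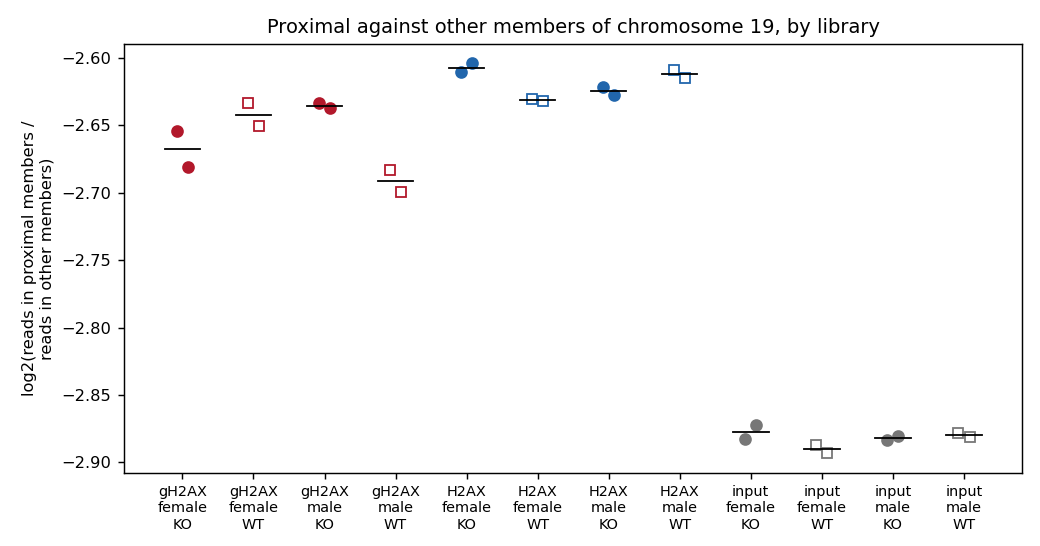
Log2 ratio of reads in the proximal members of chromosome 19 to reads in its other members, for each of the 24 libraries (filled circles KO, open squares WT; lines mark the mean of 2). gH2AX libraries lie between -2.70 and -2.63 and H2AX libraries between -2.63 and -2.60, all above the input libraries at -2.89 to -2.87.

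By member, all 69 tested proximal bins had H2AX over input above 0 and 68 were called higher, with a median of 0.31, against a median of 0.023 in the rest, where 242 were higher and 199 lower. For gH2AX over input, 51 proximal members were higher and 16 lower (median 0.27), against 221 higher and 211 lower of 510 in the rest (median 0.0040). The proximal part also had more genes. It held 32.5 protein-coding gene midpoints per Mb, against 9.33 in the rest and 8.46 on chromosomes 1 to 18, and 26.1% of its bins held 5 or more, against 2.15% in the rest.

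Along the chromosome, the medians of 1-Mb windows were mostly high together and low together for both marks. Of 59 windows, 31 were above 0 for both ratios to input, 20 were below 0 for both, 7 had H2AX above and gH2AX below 0, and 1 had the reverse. The highest window for both began at 6 Mb, with 0.43 for gH2AX and 0.51 for H2AX. Further windows with high values began at 10 Mb (0.39 for gH2AX and 0.38 for H2AX) and between 41 and 47 Mb, where gH2AX reached 0.28 and H2AX 0.40. The lowest gH2AX window began at 13 Mb within the olfactory receptor cluster (-0.26), and the lowest H2AX window at 20 Mb (-0.24). The gH2AX over H2AX ratio was lowest in the window from 8 Mb (-0.20) and highest in the window from 34 Mb (0.14). Across the 579 members gH2AX over input and H2AX over input correlated with r = 0.89 and rho = 0.87, a description of bins that share the input libraries and their neighbours.

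**Figure D2:**
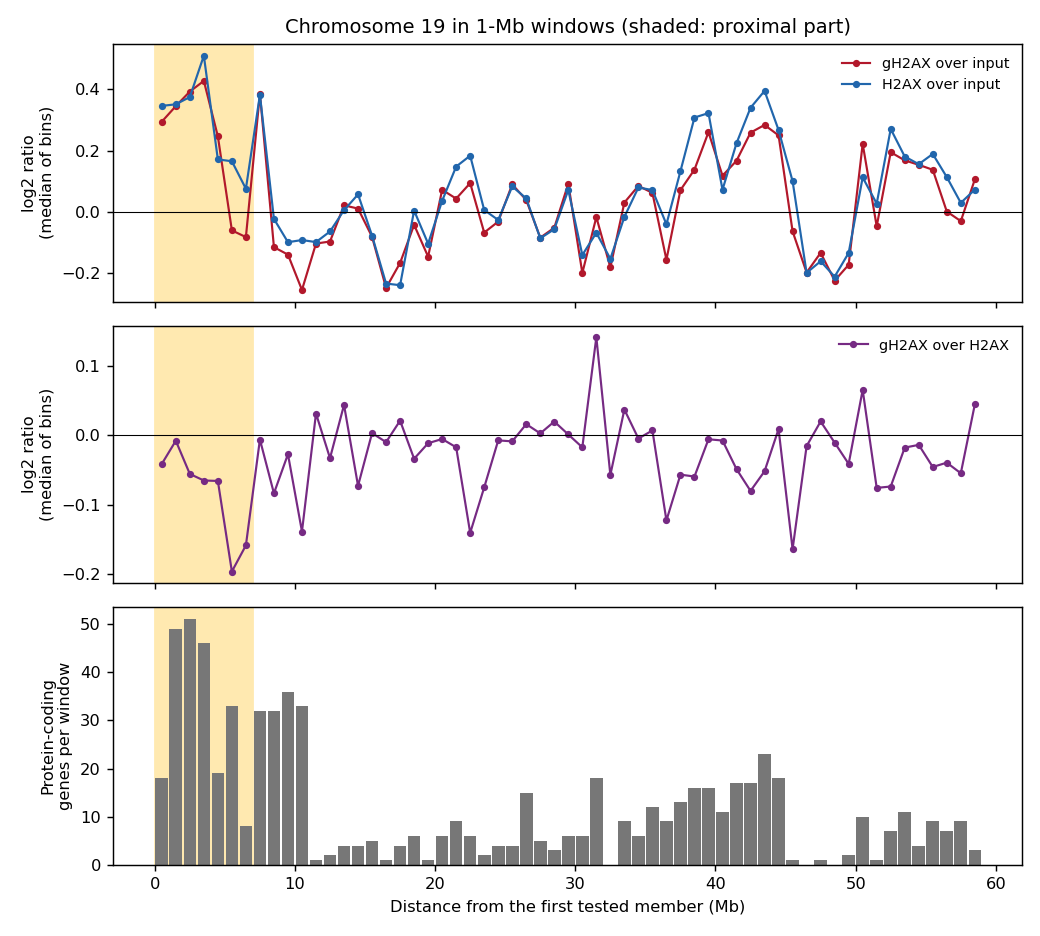
Medians of 1-Mb windows along chromosome 19 against distance from the first tested member. Top, gH2AX over input and H2AX over input (log2); middle, gH2AX over H2AX (log2); bottom, protein-coding gene midpoints per window. Both ratios to input peak at 0.43 and 0.51 within the shaded proximal part, where gH2AX over H2AX also has its minimum of -0.20.

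Within the proximal part, H2AX was above input everywhere, whereas gH2AX was below input in stretches with few or tissue-restricted genes. The 16 proximal members called lower for gH2AX over input were all called higher for H2AX, and they fell into 3 stretches. The first 2 tested bins, chr19:3000001-3200000, had no overlapping protein-coding gene. A run of 8 bins at chr19:7700001-8500000 overlapped Slc22a19 and Slc22a26 to Slc22a30 of the Slc22a family, membrane transporters of organic ions that are mainly expressed in kidney and liver. The last 6 bins, chr19:9200001-9800000, overlapped no protein-coding gene. The remaining 2 members that were not higher, chr19:7600001-7700000 (0.019) and chr19:8500001-8600000 (-0.025), flank the Slc22a run. In the 8 bins from chr19:7600001 to 8400000 the median was -0.13 for gH2AX over input, 0.12 for H2AX over input and -0.24 for gH2AX over H2AX, and in the gene-free stretch it was -0.11, 0.075 and -0.21. The bin of Slc22a28, chr19:8000001-8100000, shows the pattern in CPM, reads scaled by TMM to a common autosomal total. It had 29.0 to 32.6 CPM in the 8 gH2AX libraries (median 31.6) and 35.3 to 39.9 CPM in the 8 H2AX libraries (median 37.6), against 31.3 to 34.5 CPM in the 8 input libraries (median 33.8). No H2AX library overlapped an input or a gH2AX library there. Slc22a genes are paralogs, and how reads with several alignments were counted is not given in the sources used here.

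Gene-poor bins elsewhere had lower H2AX over input. Proximal members without a protein-coding midpoint (13 bins) had a median H2AX over input of 0.14, against -0.069 for the 242 such members in the rest and -0.11 for the 13103 such bins of chromosomes 1 to 18. Their gH2AX over input was -0.094, against -0.076 and -0.093 in those 2 sets. Summed reads of these 13 proximal members over those of the gene-poor members in the rest gave a log2 ratio of -4.25 to -4.19 over the 8 gH2AX libraries and -4.05 to -4.01 over the 8 H2AX libraries, against -4.21 to -4.18 over the 8 input libraries. The H2AX libraries lay above all others, and the gH2AX libraries overlapped the input libraries. For members with a protein-coding midpoint (56 proximal and 268 in the rest) the same log2 ratio was -2.08 to -2.00 for gH2AX and -2.04 to -2.01 for H2AX, against -2.27 to -2.25 for input. There both marks lay above input without overlap, and they overlapped each other. These classes were set after the values had been seen, and no test is given for them.

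**Figure D3:**
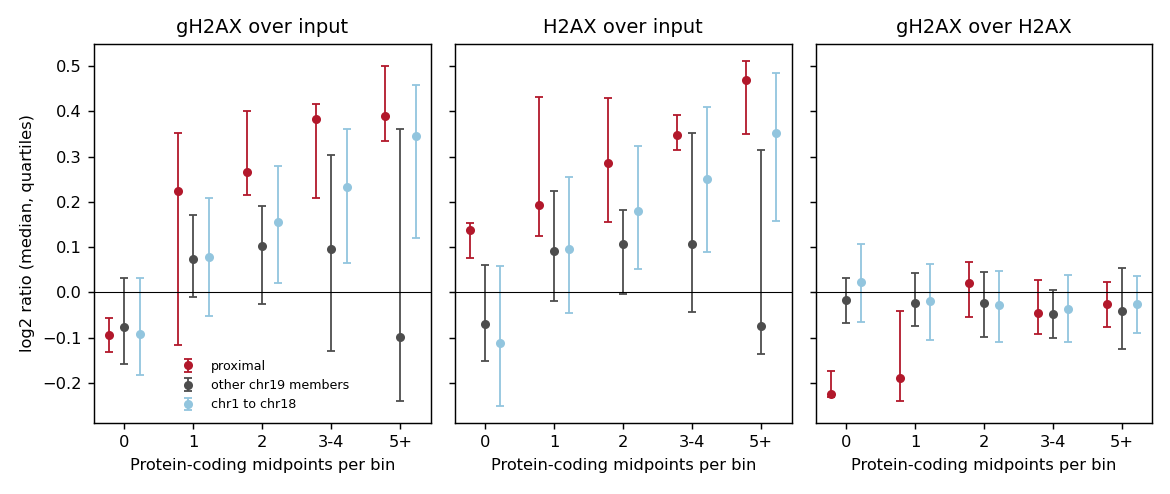
Log2 ratios by the number of protein-coding gene midpoints in a bin (0, 1, 2, 3 to 4, 5 or more) for proximal members, other members and bins of chromosomes 1 to 18; points are medians over bins and bars the quartiles. Proximal bins without a midpoint have a median of 0.14 for H2AX over input and -0.22 for gH2AX over H2AX, against -0.069 and -0.018 in the other members; other members with 5 or more are 11 bins, with medians below 0 for both ratios to input.

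**Figure D4:**
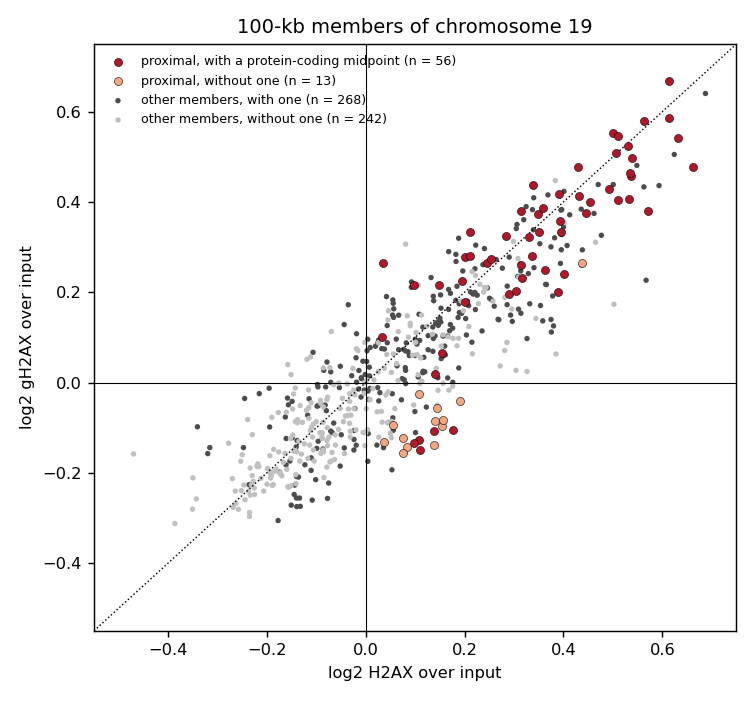
gH2AX over input against H2AX over input (log2) for the 579 tested members, in 4 classes by position and by protein-coding midpoints; the dotted line marks equal ratios. Proximal members without a midpoint lie mostly at H2AX above 0 and gH2AX below 0, while the proximal members with one reach 0.67 for gH2AX.

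The 5 members with the highest gH2AX over input held from 1 to 12 protein-coding gene midpoints each. The first was chr19:7100001-7200000 with Macrod1 (an ADP-ribose hydrolase), Flrt1 (an adhesion protein) and Otub1 (a deubiquitinase), with 52.8 to 61.3 CPM over the gH2AX libraries (median 56.1), against 34.2 to 37.5 CPM over the input libraries (median 35.6). Its gH2AX over input was 0.67 ± 0.017 (SE). Next came chr19:10200001-10300000 with Dagla (a lipase that makes an endocannabinoid), Myrf (a transcription factor of myelination) and Fen1 (the flap endonuclease of replication and repair) at 0.64, Lrp5 (a Wnt co-receptor, chr19:3600001-3700000) at 0.59, the bin of Pitpnm1 and Carns1 (chr19:4100001-4200000) at 0.58 and that of Aldh3b1, Unc93b1 and Aldh3b3 (chr19:3900001-4000000) at 0.55. Of these 5 members, 4 lay in the proximal part, and the bin of Dagla lies just beyond its end. The same bin of Dagla, Myrf and Fen1 was highest for H2AX over input (0.69), followed by Pcnx3, Sipa1 and Map3k11 (chr19:5600001-5700000, 0.66), Cdc42bpg, Map4k2 and Sf1 (chr19:6300001-6400000, 0.63), Neurl1a and Sh3pxd2a (chr19:47200001-47300000, 0.62) and the bin of Macrod1 (0.61). The low end lay outside the proximal part. The lowest gH2AX over input was in gene-free bins from chr19:19400001 to 20100000, down to -0.31, and at the olfactory receptor genes Olfr1471, Olfr1472 and Olfr1474 (chr19:13400001-13500000, -0.31 ± 0.02). That olfactory receptor bin had 25.8 to 30.4 CPM over the gH2AX libraries, against 32.9 to 36.6 CPM over the input libraries, without overlap.

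The members of a list of DNA repair, replication and chromatin genes were mostly rich in both marks. The list also holds genes with other roles, such as Fas. The 24 listed genes lie in 21 members, of which 17 were higher and 1 lower for gH2AX over input (median 0.28), beside a median of 0.024 over all members and -0.012 over all bins tested. Fen1 stood at 0.64, Rad9a (a subunit of the checkpoint clamp) at 0.58, Men1 (menin) and Sf1 (a splicing factor) at 0.54 in 1 shared bin, and Kat5 (the acetyltransferase TIP60 of the break response), Rela and Rnaseh2c at 0.48 in another. For H2AX over input, 18 were higher and 2 lower (median 0.34), Fas (a death receptor, -0.25) among the lower ones. Genes commonly active in fibroblasts gave 18 higher and 3 lower of 21 members for gH2AX over input (median 0.26) and the same counts for H2AX. Prdx5 (a peroxiredoxin, 0.55), Cox8a (a respiratory chain subunit, 0.46) and the nuclear RNA gene Neat1 (0.44) were at the upper end, and Aldh1a1 (a retinaldehyde dehydrogenase, -0.16), Anxa1 (annexin A1, -0.14) and Eif3a (a translation factor, -0.064) were the lower members. Over all bins tested, 41.5% were higher for gH2AX over input and 44.9% for H2AX over input. Neither list was matched for gene number. On chromosomes 1 to 18, bins with 3 to 4 protein-coding midpoints had medians of 0.23 for gH2AX over input and 0.25 for H2AX over input. Those with 5 or more had 0.35 for both. These libraries hold DNA, so the activity of a gene is a property of the list and was not measured.

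The olfactory receptor, Ms4a, Cyp2c and Lip families had medians below 0 for gH2AX over input. Over all bins tested 45.2% were lower for gH2AX over input and 44.5% lower for H2AX over input. The 63 olfactory receptor genes lie in 19 members, of which 17 were lower and 1 higher for gH2AX over input (median -0.19), while 13 were lower and 3 higher for H2AX over input (median -0.10). The Ms4a genes (membrane proteins of blood cells) had 6 of 8 members lower for gH2AX over input (median -0.14) and 4 lower for H2AX. For the Cyp2c genes (liver monooxygenases) 8 of 9 tested members were lower for gH2AX over input (median -0.14), and 3 were lower and 3 higher for H2AX. The H2AX counts of the Ms4a and Cyp2c families are near the share over all bins. The Lip genes (acid lipases) had 4 of 6 lower for gH2AX and 5 of 6 lower for H2AX. The Ifit genes (interferon-induced) filled 2 members, with a median of 0.042 for gH2AX over input, and 1 of them was higher. The Slc22a genes had 5 lower and 3 higher of 9 members for gH2AX over input (median -0.11), and all 9 were higher for H2AX (median 0.14). Within these lists a bin can hold several genes, and the paralogs share sequence, so reads may have been placed among copies in a way the sources used here do not give.

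Relative to H2AX, gH2AX was lower in most members of the olfactory receptor, Ms4a, Slc22a, Cyp2c and long genes. The gH2AX over H2AX ratio was lower in 15 of 19 olfactory receptor members, 7 of 8 Ms4a members, 8 of 9 Slc22a members and 8 of 9 tested Cyp2c members, against 36.6% of all bins tested. It was also lower in 43.9% of all members and 58% of proximal members. The repair, replication and chromatin list had 12 of 21 members lower and 1 higher (median -0.045). The fibroblast-active members were 8 lower and 9 higher of 21. The Lip members were 3 higher and 2 lower of 6 (median 0.051) and both Ifit members were higher, against 38.5% of all bins higher. In members of 12 long genes it was lower in 11 (median -0.065), from Sorcs3 (a sortilin-like receptor, -0.28) and Pcsk5 (a proprotein convertase, -0.16) to Nrxn2 (a neurexin, -0.042), while Trpm3 (a cation channel) was at 0.022. The lowest members were those of Crtac1 (a secreted cartilage protein), chr19:42300001-42400000 at -0.34 and the next bin at -0.33. Crtac1 had 38.9 to 41.1 CPM over the gH2AX libraries and 48.8 to 55.7 CPM over the H2AX libraries, beside 32.7 to 35.6 CPM over the input libraries, so all 3 kinds were separate. The highest member was chr19:20400001-20500000 with a part of Aldh1a1, at 0.31. There the gH2AX libraries had 31.0 to 33.2 CPM and the H2AX libraries 25.5 to 26.7 CPM, beside 35.2 to 37.1 CPM for input, so both marks were below input and H2AX more so. The bins of Lipa and Ch25h (0.24), Best1 and Fth1 (ferritin heavy chain, 0.23), the bin before Dusp5 (chr19:53400001-53500000, 0.23), Fas (0.21) and Acta2 with Stambpl1 (0.21) followed. In the bin of Acta2, the smooth-muscle actin, gH2AX was above input (0.17) and H2AX below it (-0.035).

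Before the genotypes are compared, 1 member needs a remark on its DNA content. In chr19:36900001-37000000, with Btaf1 (an ATPase that acts on TBP) and Fgfbp3, input was 49.2 and 50.5 CPM in male KO libraries, against 38.2 and 38.1 CPM in male WT libraries. This input rise of 0.39 ± 0.031 (adjusted p = 8.06e-21) was matched by 0.42 in H2AX and 0.43 in gH2AX, while female KO and WT input libraries lay between 36.9 and 38.7 CPM. The bin lies close to the left-out pair at Ide and Kif11, and it follows the amount of DNA. The input of chr19:21900001-22000000, without an overlapping protein-coding gene, was also higher in male KO libraries (0.17, adjusted p = 0.00516), a call that ended without input male KO replicate 1 (adjusted p = 0.169) or input male WT replicate 1 (adjusted p = 0.266). These were the 2 members with called input in males, both higher in KO, against 0.222% of all bins tested (0.0973% higher). In females edgeR called 0 members for input, against 0.183% of bins, and DESeq2 likewise 0, while 31 had an unadjusted p under 0.05.

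In males, gH2AX differed between KO and WT cells in both directions along chromosome 19. The median change was 0.13 in the 18 proximal members with 5 or more protein-coding midpoints and -0.075 in the 13 proximal members without one. On chromosomes 1 to 18 the same classes had medians of 0.11 in 637 bins and -0.050 in 13102 bins, so this split is not particular to the proximal part. In the rest of chromosome 19 they were closer together, at 0.0088 in 11 members (quartiles -0.16 to 0.12) and -0.026 in 242 members (quartiles -0.082 to 0.051). edgeR called 258 of 579 members, 178 higher and 80 lower in KO, against 44.7% of all bins tested, so the share called (44.6%) was that of the genome, while the split leaned to higher (30.7% of members higher and 13.8% lower, against 22.4% and 22.2% of all bins). In the proximal part 37 of 69 members were higher and 6 lower (median 0.094), against 141 higher and 74 lower of 510 in the rest (median 0.024). KO and WT libraries did not overlap in 257 of the called members. That is 44.4% of the members tested, and likewise 44.4% of all bins tested were both called and without overlap. Without gH2AX male WT replicate 2 the number called was 153. Subtracting the input change left 114 (77 higher, 37 lower), against 19.6% of bins.

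The largest stretch higher in male KO cells opened the chromosome's gene-rich block. It covered 11 bins, chr19:3200001-4300000, and was led by Lrp5, with 62.2 and 60.0 CPM in the gH2AX male KO libraries, against 51.9 and 49.9 CPM in the male WT libraries. This was 0.26 ± 0.034 (SE, adjusted p = 1.65e-11), while H2AX at Lrp5 was 57.9 and 54.7 CPM in male KO libraries, against 57.7 and 57.3 CPM in male WT libraries. In chr19:5900001-6600000 7 bins were higher, led by the bin of Majin (a meiotic telomere anchor), Snx15 (a sorting nexin) and Naaladl1 with 47.8 and 48.8 CPM in male KO libraries, against 43.6 and 41.4 CPM in male WT libraries (0.19 ± 0.035, adjusted p = 4.7e-06). Further along, 7 bins of chr19:41600001-42300000 were led by Rrp12 (a ribosome assembly factor), Frat1 and Frat2 (GSK3-binding proteins) with 51.2 and 48.9 CPM in male KO libraries, against 44.8 and 42.9 CPM in male WT libraries (0.19, adjusted p = 4.17e-06). Another 7 bins, chr19:46300001-47000000, were led by Arl3 (a GTPase of cilia), Sfxn2 and Trim8 with 48.5 and 48.4 CPM in male KO libraries, against 42.5 and 43.2 CPM in male WT libraries (0.18, adjusted p = 1.24e-05).

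The longest stretches lower in male KO cells lay in olfactory receptor and gene-free DNA. Led by Olfr1502, Olfr1501 and Olfr1504, 8 bins of chr19:13100001-13900000 were lower, the leading bin with 27.7 CPM in both gH2AX male KO libraries, against 31.9 and 32.2 CPM in male WT libraries (-0.21 ± 0.043, adjusted p = 2.95e-05). A stretch of 8 bins at chr19:35200001-36000000 whose last bin overlaps the serotonin receptor gene Htr7 was led by a gene-free bin with 29.3 and 29.3 CPM in male KO libraries, against 32.1 and 32.6 CPM in male WT libraries (-0.14, adjusted p = 0.00352). The gene-free bins chr19:19600001-20200000 (6) were led by 27.5 and 28.5 CPM in male KO libraries, against 33.1 and 33.3 CPM in male WT libraries (-0.24, adjusted p = 7.98e-07). In the 6 gene-free bins of chr19:50800001-51400000 the leading bin had 26.2 and 26.5 CPM in male KO libraries, against 31.1 and 29.4 CPM in male WT libraries (-0.20, adjusted p = 7.22e-05). Its input was also lower, at 32.7 and 32.8 CPM in male KO libraries, against 35.2 and 34.7 CPM in male WT libraries, and with the input change subtracted the value was -0.11 (adjusted p = 0.167). The proximal members lower in male KO cells were 4 bins of the Slc22a run, among them Slc22a27 (-0.17) and Slc22a28 (-0.16), and 2 of the gene-free stretch from chr19:9200001.

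By list, 16 of the 21 members of the repair, replication and chromatin list were called in males, all of them higher in KO (median 0.11), against 22.4% of all bins higher. Among them were Fen1 (0.18), Kat5 with Rela and Rnaseh2c (0.18), Rad9a (0.14) and Pola2 (a subunit of DNA polymerase alpha, 0.14). With each library's trend on enrichment removed the direction turned at 8 of these 16 members, with -0.0075 at Fen1, -0.039 at Rad9a and -0.0056 at Pola2, while Kat5 stood at 0.022. The removal also takes out any genotype change that follows enrichment, so it cannot tell such a change from a trend of the libraries. Among the other 5 members the change was 0.057 at Smc3 (a cohesin subunit), 0.056 at Kdm2a (a histone demethylase), 0.076 at Mus81 (a structure-specific endonuclease) and 0.012 at Fas, with adjusted p above 0.05. Of the fibroblast-active members 11 of 21 were called, all higher (median 0.085), led by Prdx5 (0.17), and 4 of the 11 turned with the trend removed. Of the olfactory receptor members 12 of 19 were called, all lower (median -0.10), against 22.2% of all bins lower, and 3 of the 12 turned with the trend removed. The median over all members was 0.032 and over all bins tested -0.0073.

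In both parts of the chromosome the male change followed the level of gH2AX itself. Across 579 members it correlated with gH2AX over input at r = 0.80 and rho = 0.84, a description of values that share the gH2AX libraries. The female change also followed that level, in the opposite direction (r = -0.60 and rho = -0.62). When each library's trend on enrichment was removed, 15 members were called in males (11 higher, 4 lower), 12 of which were among the 258 called before, against 1.63% of all bins, and none lay in the proximal part. The leading bins then stood at 0.081 for Lrp5 (adjusted p = 0.162), 0.064 for Majin (adjusted p = 0.345), 0.057 for Rrp12 (adjusted p = 0.411), 0.044 for Arl3 (adjusted p = 0.56) and -0.059 for Olfr1502 (adjusted p = 0.533). The male proximal against rest value, computed from summed reads, was 0.056 ± 0.011 before the removal (adjusted p = 0.00382, second of 19 autosomes) and -0.027 after it (adjusted p = 0.00409), so its direction turned. Before the removal 16 of 19 autosomes were called in this comparison, and the other autosomes ran from -0.22 to 0.14. Single proximal libraries stood at -2.63 and -2.64 in gH2AX male KO libraries, against -2.68 and -2.70 in gH2AX male WT libraries, without overlap.

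**Figure D5:**
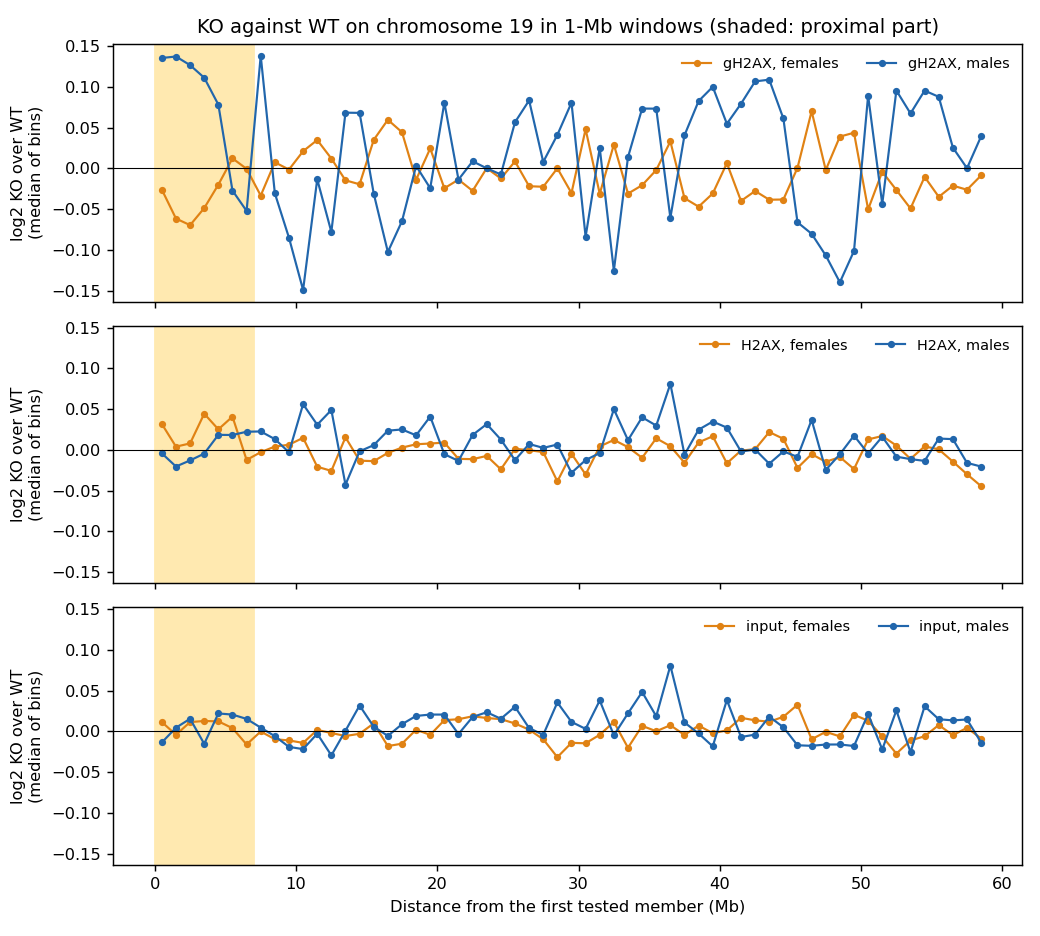
KO over WT (log2) in females and males for gH2AX, H2AX and input, as medians of 1-Mb windows against distance from the first tested member. The male gH2AX line runs from -0.15 to 0.14 and the female gH2AX line from -0.070 to 0.070.

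In females, gH2AX differed little between KO and WT cells by bin. edgeR called 6 members, 1 higher and 5 lower, against 1.01% of all bins tested (0.416% higher and 0.595% lower). Lowest was the bin of Ehbp1l1 and Ltbp3 (a latent TGF-beta binding protein), with 45.9 and 46.2 CPM in the gH2AX female KO libraries, against 51.2 and 51.7 CPM in the female WT libraries (-0.16 ± 0.036, adjusted p = 0.00284). The bin of Efemp2 (an elastic fibre protein), Fosl1 and Mus81 had 45.4 and 43.9 CPM in female KO libraries, against 49.1 and 49.1 CPM in female WT libraries (-0.14, adjusted p = 0.0215). The bin of Aldh18a1 (an enzyme of proline synthesis) and Tctn3 had 44.1 and 41.3 CPM in female KO libraries, against 47.4 and 46.1 CPM in female WT libraries (-0.13, adjusted p = 0.0395). The other lower members were 2 neighbouring bins at chr19:53400001-53600000, the second of which overlaps Dusp5, a MAP kinase phosphatase. The first of these 2 had 43.3 and 43.8 CPM in female KO libraries, against 47.7 and 47.9 CPM in female WT libraries (-0.14, adjusted p = 0.027). The higher bin was chr19:51000001-51100000, free of protein-coding genes, with 32.6 and 32.2 CPM in female KO libraries, against 29.8 and 27.8 CPM in female WT libraries (0.17, adjusted p = 0.016). KO and WT libraries were separate in all 6, so 1.04% of members were both called and separate, against 1% of all bins tested. The calls rested on single libraries. The number was 0 without gH2AX female KO replicate 2, 2 without gH2AX female WT replicate 1, 3 without gH2AX female WT replicate 2, and 3 with DESeq2. Subtracting input left 1 call, against 0.389% of bins. Once each library's trend on enrichment was taken out, edgeR called 0, against 0.253% of bins.

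The proximal part as a whole was at -0.025 ± 0.011 for gH2AX in females (adjusted p = 0.0659), with -2.654 and -2.681 in the female KO libraries, against -2.633 and -2.651 in the female WT libraries, which are narrowly separate. It was -0.012 without gH2AX female KO replicate 2 (adjusted p = 0.329), -0.017 without gH2AX female WT replicate 1 (adjusted p = 0.281) and -0.039 without gH2AX female KO replicate 1 (adjusted p = 0.0227). It passed the threshold with input subtracted (-0.038, adjusted p = 0.00627), with the proximal part ending at 12 Mb (-0.022, adjusted p = 0.0416) or starting at 4 Mb (-0.024, adjusted p = 0.0197), and was 0.0047 with the trend removed (adjusted p = 0.643). The KO over WT change of gH2AX differed between the sexes. Females minus males, the proximal against rest value was -0.081 ± 0.015 (limma, adjusted p = 0.00264). The same comparison was called on 17 of 19 autosomes, and the other autosomes ran from -0.22 to 0.38. By bin, edgeR called 236 members, 70 with the female change above the male one and 166 below it, against 40.5% of all bins tested (20.1% above and 20.4% below). In the proximal part 49 of 69 were called, 8 above and 41 below, against 62 above and 125 below of 510 in the rest. Of the 6 members called in females, 4 were also called in males, each in the opposite direction. Subtracting input left 119 members called for the difference, against 23.1% of bins. Across 579 members the female and male changes correlated at r = -0.50, and at r = 0.035 after the trend removal, as a description over bins. After that removal 6 members were called for the difference, against 0.903% of all bins, and the proximal against rest difference turned to 0.031 (adjusted p = 0.0117).

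H2AX itself changed little with genotype. In females edgeR called 0 of 579 members, against 0.152% of all bins tested, with 44 at an unadjusted p under 0.05 and 0 called by DESeq2. In males 4 members were called, all higher in KO, against 0.191% of bins (0.105% higher). They were the bin of Btaf1 (0.42), chr19:21900001-22000000 (0.22), and the bins of Cyp2c37 (0.20) and Cyp2c39 (0.19). The last pair lies near the left-out pair at Cyp2c29 and Cyp2c39. At Cyp2c37 H2AX was 32.9 and 32.1 CPM in male KO libraries, against 27.7 and 29.0 CPM in male WT libraries, beside input of 33.0 and 33.1 CPM in male KO libraries, against 29.2 and 31.4 CPM in male WT libraries. At Cyp2c39 it was 34.4 and 37.1 CPM in male KO libraries, against 31.1 and 31.4 CPM in male WT libraries. With the input change subtracted edgeR called 0 members, against 0.0311% of bins, and these 4 had values of 0.030 to 0.095, while the number called was 14 without H2AX male KO replicate 1 and 2 without any of H2AX male KO replicate 2, male WT replicate 1 or male WT replicate 2. Over the proximal part, H2AX was 0.024 ± 0.0055 higher relative to the rest in female KO libraries (adjusted p = 0.0372). Its library values were -2.61 and -2.60 in female KO libraries, against -2.63 and -2.63 in female WT libraries. That call ended without any 1 of the 4 female H2AX libraries (adjusted p = 0.167 to 0.42), with the input change subtracted (0.011, adjusted p = 0.859) and with the median of bins (0.0017, adjusted p = 0.961). In males the same value was -0.012 (adjusted p = 0.258).

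The genotype change of gH2AX was also set against that of H2AX in 1 fit. The proximal against rest value of gH2AX over H2AX, KO over WT, was 0.068 ± 0.011 in males (adjusted p = 3.42e-05) and -0.049 ± 0.011 in females (adjusted p = 0.00123), and the female value with the median of bins was -0.027 (adjusted p = 0.251). From summed reads this comparison was called on 12 of 19 autosomes in males and on 15 of 19 in females. By member, 189 were called in males, 109 higher and 80 lower, against 30.1% of all bins tested, with 115 left without gH2AX male WT replicate 2. In females 1 was called, lower in KO, against 0.237% of bins. Summed over all members, gH2AX was 0.031 ± 0.0029 higher in male KO libraries than in male WT libraries (adjusted p = 0.000146) and 0.012 ± 0.0029 lower in female KO libraries than in female WT libraries, a result of -0.012 with an adjusted p of 0.0126 that ended without gH2AX female KO replicate 2 (adjusted p = 0.0684) or gH2AX female WT replicate 1 (adjusted p = 0.0692). The same sum was also higher in male KO libraries for H2AX (0.0067 ± 0.0018, limma, adjusted p = 0.0308). For male input it was 0.0067 ± 0.0018 (limma, adjusted p = 0.0448), and both ranked 1 of 19 autosomes. In females neither was called, with 0.0011 for H2AX (adjusted p = 0.709) and 0.0012 for input (adjusted p = 0.603).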

How the data were processed

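The authors deposited raw read counts per 100-kb bin, with 1 column per library. The submitters' processing notes name genome build mm10 and these programs, without their roles: Bowtie2 (2.2.9), deepTools (2.4.2), FastQC (0.11.3), MACS2 (2.2.7.1), SAMtools (0.1.19) and Trimmomatic (0.36). How duplicates and reads with several alignments were handled is not given in the sources used here. A further 24 columns of the table carry names that fit no label and were left out.

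Counts of chromosomes 1 to 19 and X were filtered with filterByExpr, scaled by TMM on autosomal bins and fitted with edgeR 4.0.16 (quasi-likelihood, R 4.3.3), with Benjamini-Hochberg adjustment over all bins and calls at 0.05. Ratios between library kinds used all 24 libraries, and KO against WT used the 8 libraries of a kind. Proximal to rest ratios and chromosome sums were tested with limma 3.58.1 over the 19 autosomes, on log2 values per library. DESeq2 1.42.0, other scalings and filters, input subtraction, other borders of the proximal part and leaving out each library were alternatives. For trend removal, each library's log2 deviation from the mean of its kind was smoothed by lowess (span 0.3) over the mean enrichment of each bin over input, and the fitted trend was removed. A genotype change that follows enrichment is removed with it. The fits were also run on simulated counts. These were drawn without a library trend on enrichment or a shift shared by replicate number, so they cannot judge either.

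The members, lists and comparisons were chosen with earlier results of these data known. Genes named are those of the lists, the 5 highest and 5 lowest members per ratio, and, for each direction of a genotype change, the leading bins of the 4 longest regions. Classes by gene number and the Slc22a and gene-free stretches were chosen after their values were seen. Gene positions come from RefSeq (GRCm38.p6). Some genes of the lists and bins are not reported here.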

Additional observations from a re-analysis of the deposited data

Results flagged for a closer look

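The KO over WT change of gH2AX differed between the sexes by a test of the difference itself, females minus males. It was -0.081 for the proximal part against the rest (log2, limma, adjusted p = 0.00264). The same comparison was called on 17 of 19 autosomes, and the other autosomes ran from -0.22 to 0.38. By bin, edgeR's quasi-likelihood test called 236 members, against 40.5% of all bins tested. With each library's trend on enrichment removed the proximal value was 0.031 (adjusted p = 0.0117) and 6 members were called, against 0.903% of bins, none of them proximal. The difference was -0.36 at Lrp5, -0.21 at the bin of Efemp2, Fosl1 and Mus81, -0.23 at Ehbp1l1 and Ltbp3, -0.19 at Majin, -0.30 at Aldh18a1, -0.22 at Rrp12, -0.26 at Arl3 and -0.30 at chr19:53400001-53500000. It was above 0 at Olfr1502 (0.25) and in the gene-free bins chr19:20100001-20200000 (0.27), chr19:50800001-50900000 (0.19) and chr19:51000001-51100000 (0.34). None of these 12 bins was called with the trend removed, where the smallest adjusted p among them was 0.0863. That removal also takes out any genotype change that follows enrichment. Each sex had 2 gH2AX libraries per genotype, so neither sex nor genotype can be told apart from the cultures used for it.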

How the results depend on the processing

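Of the values for comparisons under all alternatives, 393 kept direction and side of the threshold (counts within 1.5 times), 27 counts moved, 19 were weaker, 6 stronger and 2 reversed. Of single-bin values, 3872 kept them, 188 were weaker and 12 reversed, all 12 on trend removal in male gH2AX. No unirradiated libraries were analysed here, copy number was seen only through input, and the cause of the changes below was not tested.

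With the trend removed, members called for gH2AX numbered 15 in males, 0 in females and 6 for females minus males. The proximal value became -0.027 in males and 0.031 for females minus males (both reversed), and H2AX in females 0.016. Male gH2AX reversed at the bins of Fen1 (-0.0075), Men1 (-0.060), Rad9a (-0.039), Cdca5 (-0.018), Pola2 (-0.0056), Banf1 (-0.0015), Mms19 (-0.0048), Nfkb2 (-0.037), Cox8a (-0.028), Loxl4 (-0.0097) and Nrxn2 (-0.052), and in 1 further member (-0.011). With input subtracted the counts were 1 (gH2AX females), 114 (gH2AX males), 0 (H2AX males) and 119 (females minus males), and the proximal values -0.038 (gH2AX females, past the threshold) and 0.011 (H2AX females). DESeq2 called 3 for gH2AX in females and 8 for gH2AX over H2AX in females. With the second bin of each left-out pair kept, 4 were called for male input. With the median of bins the proximal values were -0.012 (gH2AX over H2AX), -0.027 (its female change) and 0.0017 (H2AX females). With the proximal part ending at 12 Mb they were -0.022 (gH2AX females, past the threshold) and 0.019 (H2AX females), and starting at 4 Mb -0.024 (gH2AX females, past the threshold).

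Bin by bin, deviations of same-numbered libraries correlated by -0.022 to 0.069 over autosomal bins. In the proximal gH2AX values, however, replicate 2 lay below replicate 1 in every sex and genotype group. The pairs were -2.654 and -2.681 (female KO), -2.633 and -2.651 (female WT), -2.634 and -2.637 (male KO), and -2.683 and -2.70 (male WT). The bins alone thus do not show whether replicate numbers pair libraries, and the main fits held no replicate block. With the replicate number as a block the proximal value for gH2AX in females stayed at -0.025 (adjusted p = 0.00145) and chromosome-wide male input at 0.0067 (adjusted p = 0.0657), past and short of the threshold.

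Leaving out each library in turn gave 0 to 4 members for gH2AX in females, 153 to 207 for gH2AX in males, 2 to 14 for H2AX in males, 1 to 2 for input in males, 0 to 4 for gH2AX over H2AX in females and 115 to 185 in males. Proximal values ran from -0.039 to -0.012 (gH2AX females), 0.021 to 0.027 (H2AX females) and 0.0075 to 0.018 (input females). Chromosome-wide values ran from -0.016 to -0.0088 (gH2AX females), 0.0045 to 0.0089 (H2AX males) and 0.0045 to 0.0089 (input males).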
